A study of Mus musculus with 18 samples.

Results

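Keratins 7, 8, 18, 19, 23 and 76 were followed in the 2 granulosa cell types of the mouse ovarian follicle, mural cells at its wall and cumulus cells around the oocyte, through ovulation. The 6 genes were taken by name from the 41325 rows of the deposited count table, which held 53 keratin genes in all. Krt7, Krt8, Krt18 and Krt19 are the keratins usual in simple epithelia. Krt23 and Krt76 were chosen by their measured values in these same libraries, a rise biased toward cumulus cells, so everything said of their levels is a description and carries no test. There were 18 polyadenylated RNA libraries from wild-type ovaries, 3 in each of 6 groups: mural and cumulus cells at 0, 4 and 12 h after human chorionic gonadotropin (hCG), the hormone that triggers ovulation. The labels give no age, strain, priming or pooling, and they do not say whether libraries of a group came from separate animals, so each p-value measures the spread of these libraries, in part possibly technical. Groups follow the sample titles. Of the 9 titles that name cumulus cells, 8 carry the mural cell type in another label field and 1 carries no cell type.

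Keratins form the intermediate filaments of epithelial cells. A filament is built from pairs of an acidic type I and a basic type II keratin, so a cell that uses keratins makes members of both types. Krt8 (type II) and Krt18 (type I) are the first pair of simple epithelia, Krt7 (type II) and Krt19 (type I) join them in many ducts and in the mesothelium, and granulosa cells, an epithelium of the follicle, are known to contain Krt8 and Krt18. Krt23 is a type I keratin with few known functions. Krt76 is a type II keratin known from the palate and other stratified oral epithelium. Mammalian keratin genes lie in one cluster per type. In GRCm38 (GENCODE M21) the type II genes are on chromosome 15 and the other type I genes on chromosome 11, while Krt18 sits at the end of the type II cluster beside Krt8. Krt7 spans 101411043 to 101430313, Krt76 spans 101884351 to 101892920, Krt8 spans 101996698 to 102004482 and Krt18 spans 102028180 to 102032027 on chromosome 15. Krt23 spans 99477974 to 99493137 and Krt19 spans 100140810 to 100148665 on chromosome 11. All 6 are protein-coding, and the values are for whole genes (reads over all exons). Krt8 and Krt18 are next to each other, on opposite strands.

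The start regions of the 4 genes that were highest in cumulus cells after hCG are shown because those genes changed level at different times. Each runs 5′ to 3′ on the gene's own strand, from 250 bases before the RefSeq start to 50 bases after it (GRCm38.p6). RefSeq's table held 5 of the 6 genes, Krt19 being the one without an entry. Capitals mark matches to the searched motifs. The Krt8 window is chr15:102004293-102004592 on the minus strand, that of Krt18 is chr15:102027966-102028265 on the plus strand, that of Krt23 is chr11:99493071-99493370 on the minus strand and that of Krt76 is chr15:101892871-101893170 on the minus strand.
Krt8: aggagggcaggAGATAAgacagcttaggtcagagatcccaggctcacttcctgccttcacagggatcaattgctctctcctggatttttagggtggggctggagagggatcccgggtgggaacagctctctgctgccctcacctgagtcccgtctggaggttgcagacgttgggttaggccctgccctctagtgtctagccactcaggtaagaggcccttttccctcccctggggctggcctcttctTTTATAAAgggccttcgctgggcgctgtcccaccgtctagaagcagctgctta
Krt18: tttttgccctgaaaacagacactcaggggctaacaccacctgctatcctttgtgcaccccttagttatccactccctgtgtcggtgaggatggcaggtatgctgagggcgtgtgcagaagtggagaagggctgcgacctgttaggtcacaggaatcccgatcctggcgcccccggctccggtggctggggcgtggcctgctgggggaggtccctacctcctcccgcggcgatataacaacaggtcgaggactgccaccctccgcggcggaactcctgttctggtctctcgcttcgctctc
Krt23: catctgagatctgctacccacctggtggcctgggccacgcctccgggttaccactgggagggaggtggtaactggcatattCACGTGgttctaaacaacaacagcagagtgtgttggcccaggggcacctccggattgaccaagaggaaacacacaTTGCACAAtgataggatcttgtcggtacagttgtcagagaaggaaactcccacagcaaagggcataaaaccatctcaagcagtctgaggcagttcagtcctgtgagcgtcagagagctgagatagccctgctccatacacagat
Krt76: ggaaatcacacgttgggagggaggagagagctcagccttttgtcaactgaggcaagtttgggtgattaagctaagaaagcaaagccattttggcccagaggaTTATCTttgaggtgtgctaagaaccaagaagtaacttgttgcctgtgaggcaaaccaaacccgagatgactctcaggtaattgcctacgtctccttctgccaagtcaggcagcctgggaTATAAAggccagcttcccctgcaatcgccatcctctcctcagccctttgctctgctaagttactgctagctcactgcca
In total 11 motifs were searched on both strands, chosen with the windows in view. The TATA box letters (TATAAA) occurred in Krt8, where matches on the 2 strands overlap at offsets -3 and -1 and so span the RefSeq start. They also occurred in Krt76, at offset -29, against 13.6% of the 32851 RefSeq windows of the same length. The motif of GATA factors, spelled AGATAA, occurred in the same 2 windows, against 11.2% of all. Krt23 held a C/EBP match (TTGCNNAA, 10.8% of all windows) and an E-box (CACGTG, 7.15%). Krt18 held none of the motifs, and Krt7 held only GC boxes (GGGCGG, 35.7% of all windows), 4 of them. No match was found for AP-1 (TGANTCA, 7.81% of all windows), the cyclic AMP response element (TGACGTCA, 1.79%), RUNX (TGTGGT, 16.8%), NR5A (AAGGTCA, 4.72%), EGR (GCGTGGG, 5.04%) or the progesterone response element (0.475%). These are letter matches in 1 window per gene and say nothing of binding.

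Libraries held 32.2 to 47.9 M unique gene counts. A level is in counts per M (CPM) of scaled totals, given as mean ± SD (n = 3 libraries). A count of 0 allows up to 3 counts, or 0.0585 to 0.0999 CPM per library, a limit that covers counting error only. RNA of other cells varied between libraries. The summed level of 15 oocyte markers ran from 135.7 to 631.8 CPM in mural libraries, from 416.6 to 2043.2 CPM in cumulus libraries at 0 h, from 1179.8 to 7355.4 CPM at 4 h and from 5.1 to 10.3 CPM at 12 h. Cumulus 4 h replicate 3 held the highest oocyte sum, and cumulus 0 h replicate 1 had the highest share of mitochondrial counts (12.8%). In bulk RNA, fewer cells of a type and less RNA per cell cannot be told apart.

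Krt8, the type II partner of the first keratin pair, was the most abundant of the 6 genes per length in each group. In mural cells it stood at 14.6, 14.3 and 15.7 CPM at 0 h, 22.9, 21.1 and 28.7 CPM at 4 h, and 31.5, 33.5 and 25.5 CPM at 12 h. In cumulus cells it stood at 26.2, 23.7 and 21.9 CPM at 0 h, 35.6, 40.5 and 22.1 CPM at 4 h, and 149.2, 151.3 and 159.4 CPM at 12 h. All cumulus libraries of 12 h lay far above the other 15, and all libraries of both later mural groups above those of 0 h. The mural rise was 0.71 ± 0.17 (log2 change ± SE, adjusted p = 0.00263) from 0 to 4 h and 1.02 ± 0.17 (0.000102) from 0 to 12 h. Scaling by library totals ended the first of these calls (0.39, adjusted p = 0.0754). In cumulus cells Krt8 rose 6.4-fold from 0 to 12 h (2.68 ± 0.18, adjusted p = 5.08e-10), and 4.68-fold from 4 to 12 h (2.23 ± 0.18, 1.08e-08).

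The early step of Krt8 in cumulus cells was small. Its change from 0 to 4 h was 0.45 ± 0.17 (adjusted p = 0.037), with overlapping groups, because replicate 3 at 4 h lay among the libraries of 0 h. The call was lost in 4 of the 6 fits that leave out a library, with a value of 0.21 (adjusted p = 0.314) without cumulus 4 h replicate 2. Without both cumulus 0 h replicate 1 and cumulus 4 h replicate 3, a pair chosen after seeing the data, it was 0.74. For Krt8 the first was the highest library of 0 h (26.2 CPM) and cumulus 4 h replicate 3 the lowest of 4 h (22.1 CPM). Leaving out both thus had to enlarge the change. That replicate 3 had the highest oocyte sum and was the lowest of its group for Krt8, Krt18, Krt23 and Krt76, and the part of oocyte RNA in this was not tested.

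Krt18, the type I partner, was lower than Krt8 per length in all libraries and rose with it. Mural libraries held 2.5, 2.82 and 4.17 CPM at 0 h, 6.13, 6.72 and 11 CPM at 4 h, and 12, 12.4 and 13.4 CPM at 12 h. Cumulus libraries held 3.17, 3.28 and 2.21 CPM at 0 h, 4.98, 4.04 and 2.5 CPM at 4 h, and 37.6, 39.7 and 45.4 CPM at 12 h. The mural groups were separate from each other at each time, while the cumulus groups of 0 and 4 h overlapped. Krt18 rose in mural cells by 1.33 ± 0.26 from 0 to 4 h (adjusted p = 0.000459) and by 1.99 ± 0.27 from 0 to 12 h (7.75e-06). Between 4 and 12 h it was at 0.66 ± 0.26 (0.0535), past the threshold with DESeq2 (0.65, adjusted p = 0.0378) and without mural 4 h replicate 3 (0.99, 0.0115). In cumulus cells the change to 4 h was 0.42 ± 0.26 (0.202). Leaving out each library in turn gave 0.18 to 0.65 (adjusted p up to 0.623). Of these only the fit without cumulus 4 h replicate 3, the lowest of its group, passed the threshold (0.65, adjusted p = 0.0403). The cumulus rise of Krt18 from 0 to 12 h was 14.2-fold (3.82 ± 0.28, 2.05e-09).

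**Figure D1:**
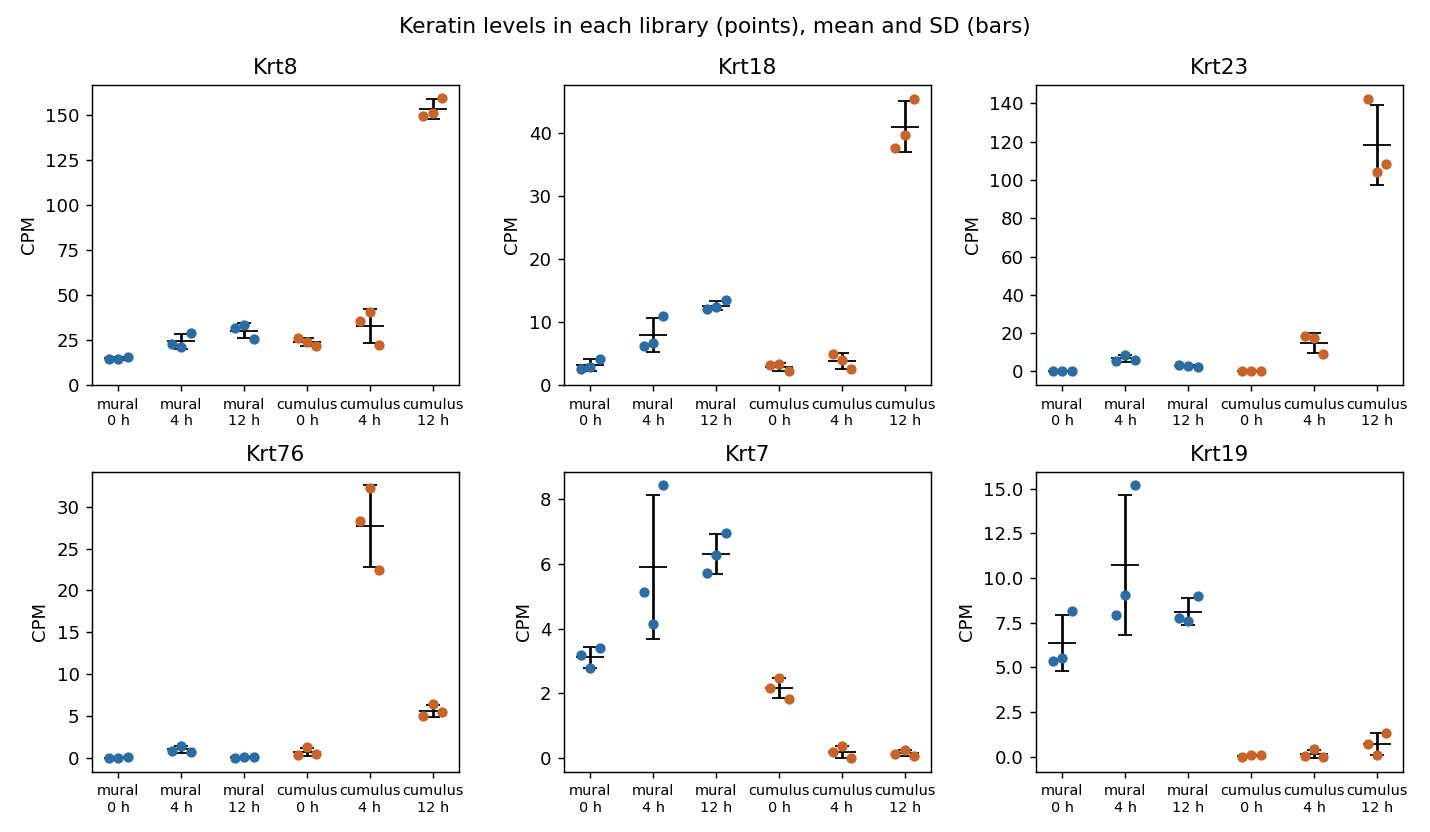
Levels of the 6 keratins in CPM (vertical axes, linear, a separate scale per gene) in the 18 libraries, by cell type and hours after hCG. Points are libraries, blue for mural and orange for cumulus cells, and bars give the mean and SD of 3 libraries. Krt8, Krt18 and Krt23 are highest in cumulus cells at 12 h, Krt76 in cumulus cells at 4 h, and Krt7 and Krt19 in mural cells at 4 and 12 h.

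Cumulus and mural cells were compared at each time to ask how the 2 cell types of one follicle differ. Before hCG, Krt8 was higher in cumulus cells (0.69 ± 0.17, adjusted p = 0.00354), while Krt18 was at -0.13 ± 0.26 (0.704). At 4 h Krt18 was lower in cumulus cells (-1.04 ± 0.26, adjusted p = 0.00278), with no overlap, a call that ended in the fit of these groups alone (-1.03, 0.0509). Krt8 at 4 h was at 0.43 ± 0.17 (0.0404), with overlap, and its call was lost in 4 of the 6 fits that leave out a library, down to 0.26 (adjusted p = 0.22) without cumulus 4 h replicate 2. At 12 h both were higher in cumulus cells, Krt8 by 5.08-fold (2.34 ± 0.18, 1.61e-08) and Krt18 by 3.25-fold (1.7 ± 0.26, 4.94e-05).

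The rise from 0 to 12 h itself was larger in cumulus than in mural cells, by 1.66 ± 0.24 for Krt8 (adjusted p = 3.99e-05) and by 1.83 ± 0.37 for Krt18 (0.000741). For the first 4 h the difference was -0.25 ± 0.24 for Krt8 (0.509) and -0.91 ± 0.37 for Krt18 (0.111). A fit with the oocyte sum as a term ended the 12 h differences of Krt8 (0.71, adjusted p = 0.24) and Krt18 (1.57, 0.147) and the rise of Krt8 from 4 to 12 h (1.07, 0.118). The rises from 0 to 12 h stayed past the threshold in it, that of Krt8 at 1.66 in place of 2.68 (adjusted p = 0.00486) and that of Krt18 at 3.53 in place of 3.82 (0.00162), and Krt8 at 12 h against mural cells was 1.67 in place of 2.34 (0.000407). In cumulus libraries the oocyte sum was at most 10.3 CPM at 12 h and at least 416.6 CPM earlier, so that in cumulus cells the term and the late time can hardly be told apart. Oocyte-related and time-related change were therefore not separated.

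Krt23 had almost no counts before hCG and was among the highest of the 6 genes in cumulus cells at 12 h. Mural libraries held 0, 0.0504 and 0.0437 CPM at 0 h, 5.66, 8.82 and 5.84 CPM at 4 h, and 3.48, 3.04 and 2.09 CPM at 12 h. Cumulus libraries held no count at 0 h, then 18.7, 17.2 and 9.04 CPM at 4 h and 142.5, 104 and 108.3 CPM at 12 h. Both cell types thus went from at most 2 counts per library to at least 84, and after 4 h the cumulus libraries were higher still while the mural ones were lower. Against a floor of 3 counts over the 3 cumulus libraries of 0 h, the level was at least 658.3-fold higher at 4 h and at least 5112.6-fold higher at 12 h. From 4 to 12 h it was 7.77-fold higher in cumulus cells and 2.38-fold lower in mural cells. The mural ratio of 4 to 0 h was 231.3, with an exact 95% interval of 89.9 to 851.4 from counting error, since only 4 reads stood at 0 h. Cumulus exceeded mural cells 2.24-fold at 4 h and 41.5-fold at 12 h, and without cumulus 4 h replicate 3 the 4 h cumulus mean was 17.9 in place of 15 CPM.

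Krt76 was high at 4 h and lower again at 12 h. Cumulus libraries held 0.41, 1.32 and 0.529 CPM at 0 h, 28.3, 32.2 and 22.5 CPM at 4 h, and 4.99, 6.42 and 5.55 CPM at 12 h. Mural libraries held at most 0.0874 CPM at 0 h, 0.899, 1.46 and 0.705 CPM at 4 h, and at most 0.149 CPM at 12 h. The 3 cumulus groups did not overlap, and in mural cells the 4 h libraries lay above those of 0 and 12 h. The cumulus level at 4 h was 34.5-fold that of 0 h and 4.88-fold that of 12 h, which still stood 7.07-fold above 0 h. In mural cells, at much lower counts, the 4 h level was 27.7-fold that of 0 h (counting interval 11.5 to 87.3, 5 reads at 0 h) and 11.5-fold that of 12 h. Cumulus exceeded mural cells 21.9-fold, 27.2-fold and 64-fold at 0, 4 and 12 h. Intervals from counting error, on reads pooled over the libraries of a group, were 9.07 to 68.7, 22.2 to 33.7 and 34.6 to 134.2. They leave out the spread between libraries and, for a gene chosen by these values, test nothing. Markers of stratified epithelium, where Krt76 is best known, summed at 4 h to 10.2 to 17.7 CPM over 10 genes in cumulus libraries. In mural libraries at 4 h they summed to 15.8 to 21.9 CPM. Single markers differed in direction. Lor averaged 4.22 CPM in cumulus and 10.2 CPM in mural cells, Col17a1 0.211 and 3.68 CPM, and Trp63 5.95 and 0.882 CPM. Krt5, Krt14 and Krt15 averaged at most 0.103 CPM in both. The part of such cells in the Krt76 values was not tested.

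Krt7 and Krt19 behaved unlike the other 4: they were higher in mural than in cumulus cells at both 4 and 12 h, Krt19 already at 0 h. Krt7, a type II keratin of ducts and mesothelium, stood at 3.18, 2.77 and 3.41 CPM in mural libraries at 0 h, 5.13, 4.16 and 8.43 CPM at 4 h, and 5.73, 6.27 and 6.95 CPM at 12 h. Cumulus libraries held 2.18, 2.48 and 1.84 CPM at 0 h, 0.202, 0.364 and 0 CPM at 4 h, and 0.118, 0.264 and 0.0792 CPM at 12 h. All cumulus libraries of 0 h lay above all later ones. In cumulus cells Krt7 fell by 3.52 ± 0.56 on the log2 scale from 0 to 4 h (adjusted p = 5.15e-05) and by 3.8 ± 0.58 from 0 to 12 h (1.89e-05). Each of the alternatives run, leaving out single libraries included, kept both calls. The first was -4.34 without cumulus 4 h replicate 2, and the second was -4.42 without cumulus 12 h replicate 2 and -4.58 in the fit with the oocyte sum. The mural changes were 0.92 ± 0.45 to 4 h (0.112) and 1.02 ± 0.45 to 12 h (0.0862), although the groups did not overlap. With DESeq2 they were past the threshold (0.95, adjusted p = 0.00988, and 1.03, 0.00514), and in the fit of the compared groups alone as well (0.92, 0.00754, and 0.98, 0.000353).

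The 2 cell types moved apart in Krt7. At 0 h the difference of cumulus against mural cells was -0.52 ± 0.46 (adjusted p = 0.363). It was -4.96 ± 0.58 at 4 h (2.26e-06) and -5.35 ± 0.6 at 12 h (1.62e-06). The change from 0 h differed between the cell types by -4.44 ± 0.73 at 4 h (adjusted p = 0.000473) and by -4.82 ± 0.74 at 12 h (6.7e-05). Leaving out 1 library kept these 4 calls. The 4 h values were -5.72 and -5.19 without cumulus 4 h replicate 2 and -4.34 and -3.84 without its replicate 3, and the 12 h values were -5.96 and -5.44 without cumulus 12 h replicate 2. With the oocyte sum the 12 h difference in the change was -5.54 (adjusted p = 0.00388).

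Krt19, the type I keratin that lacks most of the tail domain, was far higher in mural than in cumulus libraries at all 3 times. They held 5.35, 5.54 and 8.17 CPM at 0 h, 7.92, 9.07 and 15.2 CPM at 4 h, and 7.75, 7.6 and 8.99 CPM at 12 h. Cumulus libraries held 0, 3 and 3 counts at 0 h, 1, 14 and 0 counts at 4 h, and 24, 2 and 50 counts at 12 h. No cumulus library reached the lowest mural one. On the log2 scale cumulus cells differed from mural cells by -7.02 ± 0.98 at 0 h (adjusted p = 1.73e-05), -6.25 ± 0.89 at 4 h (2.09e-05) and -3.52 ± 0.73 at 12 h (0.00103), and at 12 h the fit with the oocyte sum ended the call (-4.16, 0.0751). The 4 h difference was -9.43 without cumulus 4 h replicate 2, which held 14 of the 15 counts of its group, and -5.64 without replicate 3, and the 12 h difference was -4.39 without cumulus 12 h replicate 3. In mural cells Krt19 was at 0.76 ± 0.64 for 4 h (0.367) and 0.35 ± 0.64 for 12 h (0.709) against 0 h. Its cumulus rise from 0 to 12 h passed the test (3.85 ± 1.03, adjusted p = 0.00343), as did that from 4 h (2.32 ± 0.9, 0.0331) and the difference from mural cells (3.5 ± 1.24, 0.0322). These 3 rest on few reads and overlapping groups. Leaving out 1 library ended the call against 4 h in 4 of 6 fits (adjusted p up to 0.22) and the difference from mural cells in 10 of 12 (up to 0.119), where the value ran from 2.63 to 4.03. Against 4 h it was 1.45 without cumulus 12 h replicate 3 and 5.47 without cumulus 4 h replicate 2, and the rise from 0 h was 2.99 (0.0287) without cumulus 12 h replicate 3. The fit with the oocyte sum ended all 3 (2.88, 0.425, then 1.27, 0.794, and 2.6, 0.488).

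**Figure D2:**
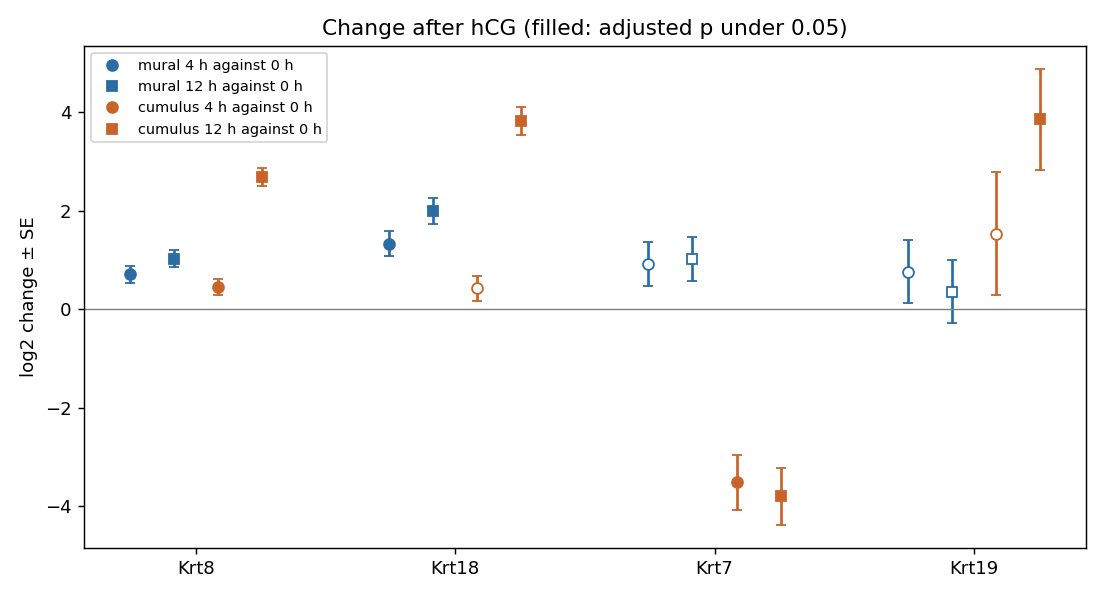
Log2 change after hCG (vertical axis, ± SE) of the 4 tested keratins against 0 h, circles at 4 h and squares at 12 h, blue for mural and orange for cumulus cells, filled where the adjusted p is under 0.05. Krt8 and Krt18 lie above 0 in both cell types, Krt7 is at -3.52 and -3.8 in cumulus cells, and Krt19 carries the widest errors.

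Markers of the ovarian surface epithelium and mesothelium, cells that lie on the ovary and contain Krt7 and Krt19, were measured beside them. Their sum over 12 genes was 35.4 to 75.5 CPM in mural libraries and 5.56 to 6.15 CPM in cumulus libraries at 12 h. In cumulus libraries at 0 and 4 h it ran from 9.12 to 207.5 CPM, and it was highest in the library with the highest oocyte sum. In cumulus against mural cells 7 of the 12 were lower and 2 higher at 0 h, 7 lower and 3 higher at 4 h, and 9 lower at 12 h. Over all genes 25.3, 27 and 20.5% were lower and 21.5, 27.6 and 18% higher in these comparisons. Msln (mesothelin) was at 7.98 to 20.9 CPM in the 9 mural libraries and had no count in 8 of the 9 cumulus libraries, the other holding 4 counts. Upk3b, a uroplakin of the mesothelium, was at 5.74 to 14 CPM in mural libraries and at most 0.945 CPM in cumulus libraries. Other markers of the list went the other way at 0 and 4 h. Bnc1 averaged 18.5 and 50 CPM in cumulus against 4.76 and 3.06 CPM in mural cells. Cdh1 averaged 12.6 and 36.4 CPM against 3.28 and 4.83 CPM. Mural 4 h replicate 3 held the highest mural values of this sum, Msln, Upk3b, Krt7 and Krt19, while Upk1b, another uroplakin, was highest in mural 12 h replicate 3 (5.23 against 4.11 CPM) and Muc16, a mucin, in mural 0 h replicate 3 (4.28 against 3.17 CPM). Without mural 4 h replicate 3 the mural 4 h mean was 4.64 CPM for Krt7 and 8.5 CPM for Krt19. Markers of theca cells, another cell type of the follicle, differed between the cell types too. Their sum over 8 genes was 607 to 1404.4 CPM in mural and 27.9 to 117.9 CPM in cumulus libraries. All 8 were lower in cumulus cells at 0, 4 and 12 h, against the shares of all genes given above. Mural 4 h replicate 3 was also the highest mural 4 h library for Krt8 (28.7 CPM) and Krt18 (11 CPM). Without it the mural changes from 0 to 4 h were 0.5 for Krt8 (adjusted p = 0.0451) and 0.95 for Krt18 (0.00952). The part of either kind of cell in the mural values of Krt7, Krt19, Krt8 and Krt18 was not tested. In the cumulus libraries of 0 h, where Krt7 was at 2.17 ± 0.322 CPM, Msln had 0, 4 and 0 counts and Upk3b 8, 18 and 0 counts. Bnc1 (18.5 CPM) and Cdh1 (12.6 CPM) were higher there, and the sum of the 12 surface markers was 9.12 to 54.5 CPM. The part of surface cells in this Krt7 was not tested either.

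**Figure D3:**
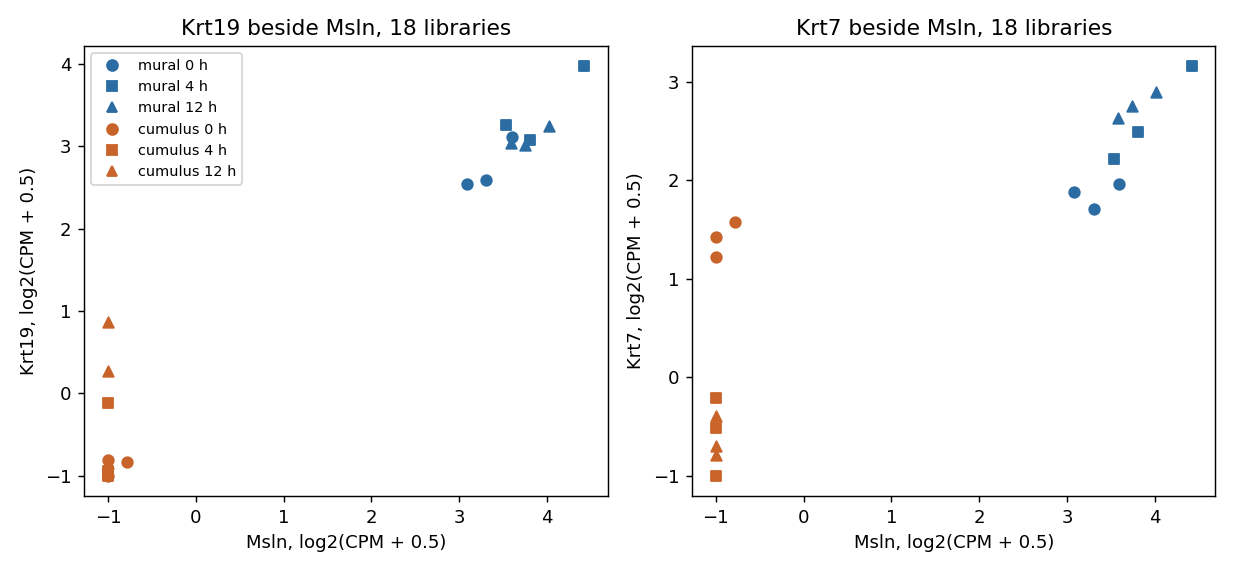
Krt19 (left) and Krt7 (right) against Msln in the 18 libraries, all axes log2(CPM + 0.5), blue for mural and orange for cumulus cells, with circles, squares and triangles for 0, 4 and 12 h. Mural libraries form a group at high Msln, cumulus libraries stand at the left edge, and the 3 cumulus libraries of 0 h hold Krt7 at 1.84 to 2.48 CPM there. Other surface markers, not drawn, were higher in cumulus than in mural cells at 0 and 4 h.

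The 4 tested keratins can be read against all 19941 genes tested. From 0 to 4 h in mural cells 2 of 4 rose (22.8% of all genes were called higher and 22.3% lower), and from 0 to 12 h the same 2, Krt8 and Krt18, rose (21.6 and 19% of all genes). From 4 to 12 h edgeR called 0 of 4, with 1 at an unadjusted p under 0.05 and 1 called by DESeq2, against 18.3% of all genes higher and 16.1% lower. In cumulus cells 1 of 4 rose and 1 fell from 0 to 4 h (25 and 22.8% of all genes), 3 rose from 4 to 12 h (29.2% higher and 31.3% lower of all genes) and 3 rose and 1 fell from 0 to 12 h (31.2 and 32.9%). In cumulus against mural cells 1 was higher and 1 lower at 0 h (21.5 and 25.3% of all genes), 1 higher and 3 lower at 4 h (27.6 and 27%), and 2 higher and 2 lower at 12 h (18 and 20.5%). The change from 0 to 4 h differed between the cell types for 1 of 4, lower in cumulus cells (6.78% of all genes higher and 7.26% lower), and that from 0 to 12 h for all 4, with 3 higher and 1 lower (20.1 and 20%). Scaling by library totals moved the share of calls that were higher from 50.6 to 29.1%, 53.2 to 66.8% and 53.2 to 39.9% in the mural comparisons of 4 with 0, 12 with 4 and 12 with 0 h. It moved that share from 52.3 to 41% and 48.7 to 38.1% in the cumulus comparisons of 4 and 12 with 0 h, from 46.7 to 35.6% for cumulus against mural cells at 12 h, and from 48.3 to 69.3% for the difference in the change to 4 h.

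To compare the genes with each other, levels were divided by the length of merged exons. Krt8 came first in each group. In mural cells it was followed by Krt19 (3.42 ± 0.851 CPM per kb) and Krt18 (2.2 ± 0.619) at 0 h, whose ranges touched, by Krt19 (5.79 ± 2.12) and Krt18 (5.52 ± 1.83) at 4 h, which overlapped, and by Krt18 (8.76 ± 0.504) ahead of Krt19 (4.37 ± 0.412) at 12 h, which did not. Krt23, Krt7 and Krt76 were lower there, with Krt23 at 4.33 ± 1.13 CPM per kb at 4 h, overlapping Krt18 and Krt19. In cumulus cells Krt8 (12.2 ± 1.09 CPM per kb) stood well above Krt18 (2.01 ± 0.411) at 0 h, with the others at most 0.326 on average. At 4 h Krt8 (16.7 ± 4.86), Krt76 (12 ± 2.1) and Krt23 (9.56 ± 3.31) overlapped in sequence, ahead of Krt18 (2.67 ± 0.871). At 12 h Krt8 (78.3 ± 2.73) and Krt23 (75.6 ± 13.5) overlapped, and Krt18 (28.4 ± 2.79) and Krt76 (2.45 ± 0.311) followed without overlap. Krt7 is the gene whose length is least certain, 7049 bases of merged exons against 4094 in its longest transcript, and using the longest transcripts changed the order in cumulus cells at 0 h only, where Krt7 and Krt76 swapped.

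Because filaments pair the types, the ratio of type II to type I RNA among the 6 genes was followed. The 6 held 66.4 to 86.8% of all keratin CPM in mural libraries. In cumulus libraries they held 33.2 to 45.4% at 0 and 4 h and 76.6 to 77.3% at 12 h. The ratios thus leave out much of the keratin RNA of the earlier cumulus groups, such as the type II genes Krt79 and Krt80. At 12 h they leave out Krt79 too, at 86.2 ± 2.46 CPM in cumulus cells beside 40.9 ± 4.01 CPM of Krt18. Whether type I RNA exceeded type II RNA over all keratins is therefore not shown. Krt8 per kb exceeded Krt18 per kb 3.59 ± 0.776, 2.32 ± 0.411 and 1.77 ± 0.326 times in mural cells at 0, 4 and 12 h. In cumulus cells the ratio was 6.22 ± 1, 6.36 ± 1.07 and 2.76 ± 0.169. The cumulus ratio was therefore lower at 12 h than at either earlier time, with no overlap. The type II sum (Krt7, Krt8 and Krt76) over the type I sum (Krt18, Krt19 and Krt23) was 6.45 ± 0.911 in cumulus cells at 0 h, 2.42 ± 0.416 at 4 h and 0.781 ± 0.1 at 12 h, and 1.47 ± 0.282, 0.89 ± 0.144 and 1.1 ± 0.169 in mural cells. Krt23 made up 0, 77.5 and 72.1% of the cumulus type I sum at the 3 times, and 0.342, 28.6 and 12.3% of the mural one, whose Krt19 is near absent from cumulus cells. The sums hold Krt23 and Krt76, which were chosen by their values, so these ratios are a description.

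**Figure D4:**
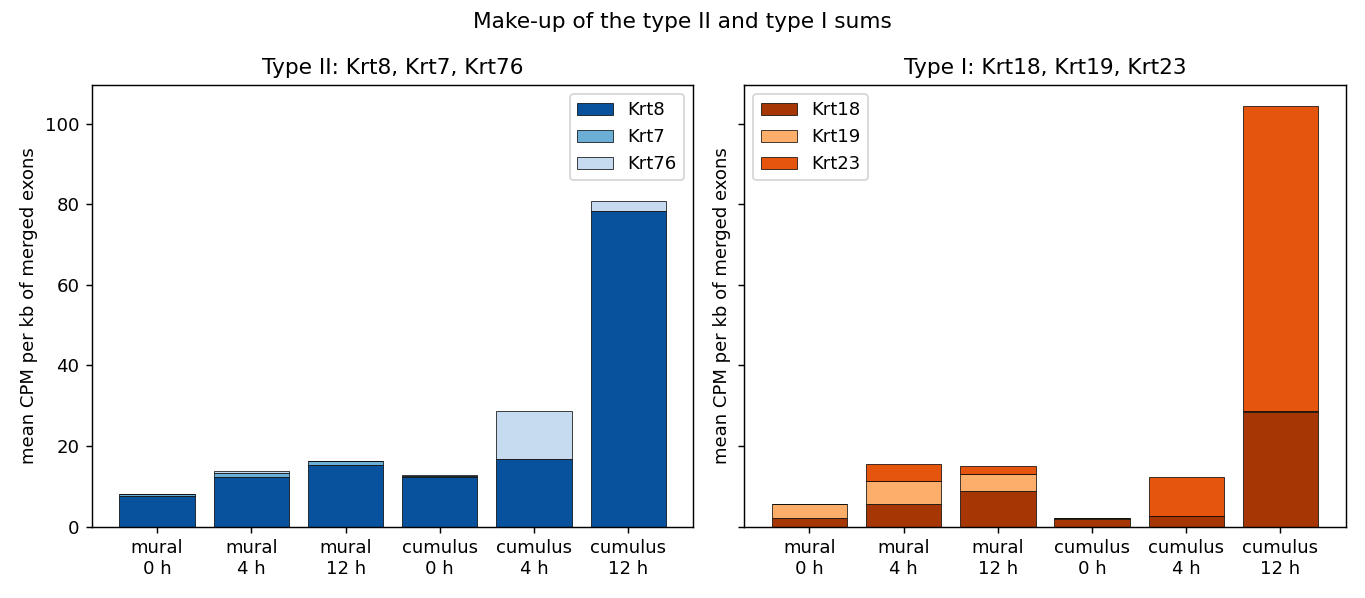
Mean level per kb of merged exons (vertical axes, linear, shared) of the type II keratins Krt8, Krt7 and Krt76 (left) and the type I keratins Krt18, Krt19 and Krt23 (right), stacked by group of 3 libraries. In cumulus cells at 12 h Krt23 (75.6) forms most of the type I bar and Krt8 (78.3) nearly all of the type II bar, and Krt76 (12) is a large part of the type II bar only in cumulus cells at 4 h.

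Of the 53 keratin genes, 23 were measured well enough to test and 14 reached a mean of 1 CPM in a group, 8 of them outside the 6. The summed level of all keratins was 39.9 ± 4.15, 71.6 ± 11.3 and 71.2 ± 2.53 CPM in mural cells and 66.7 ± 4.68, 194.1 ± 21.8 and 414.9 ± 20.1 CPM in cumulus cells at 0, 4 and 12 h. Krt79, a type II keratin known from the skin and its sebaceous ducts, was the most abundant of the 8. It went from 8.99 ± 1.3 CPM to 84.5 ± 17.6 CPM in cumulus cells at 4 h (3.23 ± 0.21, adjusted p = 1.17e-09) and stood at 86.2 ± 2.46 CPM at 12 h. In mural cells it rose to 7.34 ± 1.81 CPM at 4 h (2.79 ± 0.24, 2.99e-08) and fell to 2.79 ± 0.628 CPM by 12 h (-1.4 ± 0.22, 6.51e-05). Cumulus cells were higher in Krt79 at each time, by 3.08 ± 0.23, 3.53 ± 0.22 and 4.95 ± 0.24 (adjusted p at most 1.69e-08).

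Krt80, the type II gene next to Krt7, went the other way in cumulus cells. It was at 10.8, 8.4 and 8.36 CPM at 0 h, 0.0673, 0.546 and 0.612 CPM at 4 h and at most 0.0879 CPM at 12 h, a log2 change of -4.52 ± 0.48 to 4 h (adjusted p = 5.26e-07) and of -6.87 ± 0.58 to 12 h (1.2e-08). The fall to 12 h differed from the change in mural cells by -6.51 ± 0.71 (1.86e-06). Krt80 and Krt7 thus both fell in cumulus cells, at neighbouring positions. Krt84, Krt12 and Krt73 were highest in cumulus cells at 0 or 4 h, and Krt84 (20.2 CPM) and Krt12 (7.84 CPM) peaked in cumulus 4 h replicate 3, the library with the highest oocyte sum. Each of the 3 was lower in cumulus cells at 12 h than at 4 h (Krt84 -8.79 ± 1.31, Krt12 -2.58 ± 0.62, Krt73 -2.85 ± 0.48). Krt84 and Krt12 reached the 1 CPM needed to be named only in cumulus cells at 0 and 4 h. That choice favours a later fall, so their falls are a description and carry no test. Krt73 also reached 1 CPM in mural cells at 0 h (1.39 CPM), and its adjusted p was 6.98e-05. Krt10 stayed between 2.56 and 6.99 CPM in all libraries, and Krt1 and Krt20 were at most 2.02 CPM. Krt1 and Krt10 are the pair of differentiated epidermis, and Krt20 is known from gut and bladder.

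**Figure D5:**
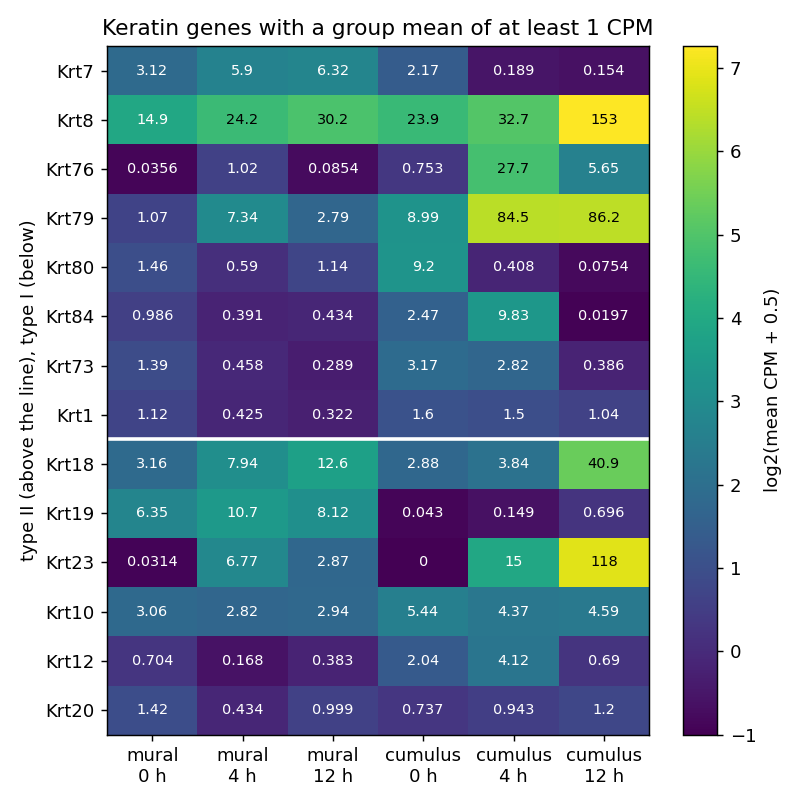
Mean CPM (numbers in the cells, colour on a log2(CPM + 0.5) scale) of the 14 keratin genes that reached 1 CPM in a group, by cell type and hours after hCG, type II above the white line and type I below. Krt79 and Krt76 are the type II genes that stand out in cumulus cells at 4 h beside Krt8, and Krt80 has its highest mean (9.2) in cumulus cells at 0 h.

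The other keratins were counted as lists, to be read beside the 31.2% of all genes higher and 32.9% lower in cumulus cells at 12 h against 0 h, and 21.6 and 19% in mural cells. Of 9 tested further type II genes, 1 was higher and 5 lower in cumulus cells at 12 h against 0 h (median log2 change -3.21, against -0.09 over all genes), and 1 higher and 2 lower in mural cells (median -0.35, against -0.05). Of 7 tested further type I genes, 1 was higher and 2 lower in cumulus cells (median 0.3) and 2 higher in mural cells (median -0.06). In the same cumulus comparison 15 of 15 oocyte markers were lower, and the part of oocyte RNA in the lower keratins was not tested.

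Other intermediate filament genes went both ways. Of 14 tested, 6 were higher and 6 lower in cumulus cells at 12 h (median 0.28), and 5 higher and 1 lower in mural cells (median 0.35), against 31.2 and 32.9% of all genes in cumulus and 21.6 and 19% in mural cells. Vim (vimentin), the filament protein of mesenchymal cells that granulosa cells contain beside keratins, rose from 60.4 ± 10.6 to 473.7 ± 123 and 1394.3 ± 8.66 CPM in cumulus cells (4.53 ± 0.19 at 12 h, adjusted p = 1.1e-12) and from 183.8 ± 11.1 to 594.9 ± 79.3 CPM in mural cells at 12 h (1.69 ± 0.17, 1.99e-07). Lmna, the nuclear lamin A gene, rose by 2.95 ± 0.11 in cumulus and 2.51 ± 0.11 in mural cells, and Synm (synemin), which joins filaments to other structures, rose by 2.41 ± 0.2 and 2.12 ± 0.19 (adjusted p of the 4 at most 9.16e-08). Lmnb1, a lamin of dividing cells among others, rose by 4 h in both (0.8 ± 0.2 in cumulus, 1.03 ± 0.2 in mural cells, adjusted p = 0.00318 and 0.000444). It fell again from 4 to 12 h (-1.4 ± 0.2, 1.47e-05, and -1.32 ± 0.2, 6.43e-05), to below its level of 0 h in cumulus cells (-0.6 ± 0.2, 0.0151).

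Genes that anchor keratins did not move as 1 group. Of 9 tested desmosome genes, 3 were higher and 5 lower in cumulus cells at 12 h against 0 h (median -1.2), and 1 higher and 2 lower in mural cells (median -0.16), against the same shares of all genes (31.2 and 32.9%, then 21.6 and 19%). Dsp (desmoplakin), which ties keratin filaments to the desmosome, fell from 388 ± 53.2 to 66.8 ± 30.3 CPM in cumulus cells by 4 h (-2.54 ± 0.26, adjusted p = 4.23e-07) and stood at 66 ± 16.6 CPM at 12 h. In mural cells it fell from 214.4 ± 18.9 to 72.5 ± 12.7 CPM by 12 h (-1.56 ± 0.26, 8.04e-05). Jup (plakoglobin) rose from 9.04 ± 3.22 to 56.1 ± 3.86 CPM in cumulus cells by 12 h (2.63 ± 0.29, 4.38e-07), and Pkp2 (plakophilin 2) from 14.4 ± 2.47 to 64.8 ± 3.54 CPM (2.17 ± 0.13, 1.14e-10). Pkp2 rose in mural cells too (1.56 ± 0.13, 1.52e-08). Pkp4, a related protein of cell junctions, fell in cumulus cells (-1.2 ± 0.1, 1.82e-08).

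Of 14 tested plakins and keratin linkers, 6 were higher and 5 lower in cumulus cells at 12 h (median 0.06), and 3 higher and 4 lower in mural cells (median 0.07). The shares of all genes were 31.2 and 32.9% in cumulus and 21.6 and 19% in mural cells. Plec (plectin), the cross-linker between keratins, other filaments and the cell cortex, rose from 77.9 ± 9.71 to 1073.5 ± 43 CPM in cumulus cells (3.78 ± 0.19, adjusted p = 1.22e-11) and from 173.5 ± 12.7 to 474.9 ± 44.3 CPM in mural cells (1.45 ± 0.17, 2.15e-06). The cumulus rise was larger by 2.33 ± 0.24 (1.13e-06). Macf1, which links actin and microtubules, fell by 4 h in mural (-1.44 ± 0.14, 1.79e-07) and cumulus cells (-1.17 ± 0.14, 1.76e-06). Dst (dystonin) rose in cumulus cells (0.93 ± 0.14 at 4 h, 3.68e-05).

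Among 15 tested regulators known to act on keratin or epithelial genes, 4 were higher and 10 lower in cumulus cells at 12 h (median -2.33), and 4 higher in mural cells (median 0.18), where all genes gave 31.2 and 32.9% for cumulus and 21.6 and 19% for mural cells. Klf4, a transcription factor of epithelial differentiation, went from 4.9 ± 3.44 to 92 ± 32.3 CPM in cumulus cells at 4 h (4.24 ± 0.43, adjusted p = 2.59e-07) and from 3.48 ± 0.972 to 49.7 ± 21.7 CPM in mural cells (3.83 ± 0.42, 9.02e-07). Esrp2, an epithelial splicing factor, rose in mural cells from 2.85 ± 0.444 to 61.6 ± 3.84 CPM at 12 h (4.43 ± 0.36, 1.66e-08). Esrp1 and Ehf were highest in cumulus cells at 4 h, at 134.2 ± 128 and 41.8 ± 38.9 CPM, and lower at 12 h than at 0 h (-8.2 ± 1.03, 2.22e-06, and -6.5 ± 0.97, 1.51e-05), beside the fall of the oocyte sum. Its part in these falls was not tested.

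For each keratin the 5 genes with the most similar pattern were taken by Pearson correlation of log2(CPM + 0.5) over the 18 libraries, among 12180 genes that reached 5 CPM on average in some group. These are descriptions, and the points share their groups. Nearest to Krt23 were Snapc1 (r = 0.993), Vgll4 (0.989), Tmod3 (0.983), Rela (0.976) and Bin3 (0.975). Snapc1, a subunit of a complex that transcribes small nuclear RNA genes, stood at 30.6, 161.9 and 390 CPM in cumulus cells and at 30.1, 108.8 and 80.5 CPM in mural cells at the 3 times. Nearest to Krt76 were Atxn1 (0.969), Sh3bgrl2 (0.963), Mlf2 (0.957), Map3k20 (0.957) and Veph1 (0.956). Atxn1 (ataxin 1) likewise had its highest mean in cumulus cells at 4 h, 138.1 CPM.

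Nearest to Krt8 were Vps29 (0.962), Gucy2g (0.96), Myh9 (0.958), Gnai2 (0.958) and Ctsz (0.958), and nearest to Krt18 were Ddr1 (0.974), Wnk4 (0.97), Fcgr3 (0.966), Sh3pxd2b (0.966) and Wnt4 (0.965). Myh9, the heavy chain of a nonmuscle myosin, stood at a mean of 2036.7 CPM in cumulus cells at 12 h and 281.1 CPM at 0 h. Nearest to Krt7 were Clec2d (0.945), Ppl (0.936), Fbln2 (0.936), Mylk (0.923) and Gdpd2 (0.921). Nearest to Krt19 were Eng (0.982), Clu (0.978), Acta2 (0.969), Msln (0.967) and Ltbp4 (0.966). Acta2, the smooth muscle actin, held 54.3 to 58.7 CPM on average in mural groups and 0.355 to 2.66 CPM in cumulus groups. With Spearman correlation 0 or 1 of each 5 stayed, and with a pseudocount of 2 from 1 to 4 of 5, so that the ranks are not stable. Among the keratins r was 0.87 for Krt8 and Krt18, 0.86 for Krt8 and Krt23, 0.78 for Krt7 and Krt19, and -0.84 for Krt7 and Krt76. It was also 0.78 for Krt18 and Krt23, 0.68 for Krt23 and Krt76, and 0.14 for Krt18 and Krt76.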

How the data were processed

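The deposited table holds raw counts of uniquely mapped reads per gene. Per the series' design text, the authors aligned and counted in CLC Genomics Workbench with default parameters, and per the submitters' processing notes the build is GRCm38. The version, the annotation and the use of strand in counting are not given in the sources used. Per the labels' protocols the libraries are stranded, but how the counting used strand is unknown, so reads of Krt7 and the antisense gene Gm671, of Krt8 and Gm36026, or of Krt8 and its pseudogene Krt8-ps on chromosome 7, which is not a row of the table, could be mixed. All 18 columns matched a sample and every row had a name.

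The tools were edgeR 4.0.16 and DESeq2 1.42.0, run in R 4.3.3. edgeR's filter (minimum count 10) kept 19941 genes with 99.96% of counts. With TMM scaling (factors 0.849 to 1.177), 1 quasi-likelihood model of 6 group means gave 11 comparisons. A gene is called at an adjusted p under 0.05 (Benjamini-Hochberg over all genes tested). SE is the log2 change over the root of F. Alternatives were DESeq2 size factors, library totals, DESeq2's test, no filter, no robust estimation, only the groups compared, a replicate block, the log2 oocyte sum as a term, leaving out each library and, chosen after seeing the data, leaving out 2 doubted libraries. The method recovered known changes in simulated data, which had a common spread and far fewer changed genes than these data. That run checked the code only and says nothing of error rates here.

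Members and lists were chosen with earlier results of these data known. Named genes were the 6 keratins, other keratins that averaged 1 CPM or more in a group, the 4 most abundant tested genes of each other list, the 5 most similar genes of each keratin and genes next to a keratin. Markers beside them, and Krt7 and Krt19 of single libraries, were named after their values were seen. Libraries of 1 group differed beyond counting error (chi-square per degree of freedom 7.3 to 245). Replicate numbers gave no clear pairing of libraries across groups (14 of 45 same-numbered pairs had r over 0.1). The median r was 0.0345 for same-numbered and -0.01335 for differently numbered pairs. Whether same-numbered libraries were paired is not known.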

Additional observations from a re-analysis of the deposited data

Results flagged for a closer look

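Changes from 0 h that differed between cumulus and mural cells by the test of the difference itself passed the threshold for all 4 tested keratins at 12 h, 3 higher and 1 lower (20.1 and 20% of all genes), and for 1 of them at 4 h. For Krt8 and Krt18 the change to 12 h was larger in cumulus cells, by 1.66 and 1.83 on the log2 scale, and neither passed with the oocyte sum as a term (adjusted p = 0.24 and 0.147). For Krt7 the difference was -4.44 at 4 h and -4.82 at 12 h, with all cumulus libraries after 0 h below those of 0 h and all mural libraries of 4 and 12 h above those of 0 h. For Krt19 it was 3.5 at 12 h, from cumulus libraries of 24, 2 and 50 counts (adjusted p = 0.0322). That call was lost in 10 of the 12 fits that leave out 1 library, with no filter (0.0968), without the 2 doubted libraries (0.0641) and with the oocyte sum (0.488).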

How the results depend on the processing

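Of 692 alternative values for 44 results of the 4 tested keratins, 624 kept the direction and the side of the threshold, and DESeq2 size factors and no robust estimation changed none of the 44. Library totals moved the median log2 change of all genes by over 0.1 in 9 of 11 comparisons (by -0.32 for mural 4 h against 0 h). They ended Krt8 calls at 4 h against 0 h in mural (0.39) and cumulus cells (0.31) and the Krt19 call of cumulus 12 h against 4 h (2.22), and put mural 12 h against 4 h past the threshold for Krt8 (0.46) and Krt18 (0.81). Krt18 in that comparison also passed with DESeq2 (0.65), no filter (0.69), only these groups (0.66) and the oocyte sum (0.66). Krt7 passed in mural cells with DESeq2 (0.95 at 4 h, 1.03 at 12 h), only the groups compared (0.92, 0.98) and, at 12 h, the oocyte sum (0.96), and Krt19 at 4 h with only the groups compared (0.75). Cumulus 12 h against 4 h was lost for Krt19 with DESeq2 (2.19), no filter (2.33), only these groups (2.22), and the oocyte sum (1.27). Only the groups compared also ended Krt8 in cumulus 4 h against 0 h (0.4) and, against mural cells at 4 h, Krt8 (0.45) and Krt18 (-1.03), and gave 5433 in place of 9532 genes called for cumulus 4 h against 0 h and 1538 in place of 2800 for the difference in the change to 4 h. The oocyte sum ended Krt8 for cumulus 12 h against 4 h (1.07), Krt19 for cumulus 12 h against 0 h (2.88), Krt18 against mural cells at 4 h (-0.91) and Krt19 at 12 h (-4.16), and the 12 h differences of Krt8 (0.71), Krt18 (1.57) and Krt19 (2.6). With it genes called went from 12065 to 4245 for cumulus 12 h against 4 h, from 12796 to 6649 against 0 h, from 10876 to 5729 and from 7680 to 5099 for cumulus against mural cells at 4 and 12 h, and from 8003 to 4809 for the difference in the change to 12 h. No filter ended the Krt19 difference at 12 h (3.48). The cause was not tested, except that the oocyte sum is nearly tied to the cumulus 12 h group. The replicate block ended 2 calls of 44, Krt19 for cumulus 12 h against 4 h (2.21, adjusted p = 0.0519) and Krt8 for cumulus against mural cells at 4 h (0.41, 0.0566), and changed no count of genes called by over 1.5 times (8991 to 9191 for mural 4 h against 0 h). Of 18 libraries 10 correlated best with libraries of their own number, a hint from the data and not from the design. Without cumulus 0 h replicate 1 and cumulus 4 h replicate 3 together, Krt18 passed for cumulus 4 h against 0 h (0.72), Krt19 was lost for 12 h against 4 h (1.8) and for the 12 h difference (3.04), and the uncalled 4 h difference of Krt8 turned sign (0.03). This pair was chosen after seeing the data, and its 4 h library was the lowest of its group for Krt8 and Krt18.

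Leaving out 1 library gave -1.7 to 2.1 for Krt19 and 0.18 to 0.65 for Krt18 and 0.21 to 0.67 for Krt8 in cumulus 4 h against 0 h, 0.51 to 0.99 for Krt18 and -0.12 to 0.47 for Krt7 in mural 12 h against 4 h, and -0.91 to 0.44 for Krt7 and 1.45 to 5.47 for Krt19 in cumulus 12 h against 4 h. For cumulus against mural cells it gave -0.28 to 0.15 for Krt18 at 0 h and 0.26 to 0.71 for Krt8 at 4 h. For the difference in the change to 4 h it gave -0.43 to 0 for Krt8, -2.4 to 1.36 for Krt19 and 2074 to 4397 genes called, the last without cumulus 4 h replicate 2. For the change to 12 h it gave 2.63 to 4.03 for Krt19. Turned signs were Krt7 without mural 4 h replicate 2 (-0.12), cumulus 4 h replicate 2 (0.44) or cumulus 12 h replicate 3 (0.04), Krt18 without mural 0 h replicate 3 (0.15) or cumulus 0 h replicate 3 (0.03), and Krt19 without cumulus 4 h replicate 2 (-1.7 and -2.4), and the 4 h difference of Krt8 went from below 0 to 0 without cumulus 4 h replicate 3, none of them called. Of called values that moved over 1.5-fold and stayed called, Krt19 for cumulus against mural cells at 4 h ran from -9.43 to -5.64 and Krt7 for cumulus 4 h against 0 h from -4.34 to -2.95. Counts of 0 to 14 reads limit Krt19 in cumulus cells at 0 and 4 h.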
